A study of Drosophila melanogaster with 24 samples.

Results

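Chitin is the polysaccharide of the insect cuticle and of the lining of the tracheae. It is made at the cell surface by chitin synthase, trimmed by deacetylases, and organised outside the cell by chitin-binding and cuticular proteins. Its genes are known from epidermis, trachea and gut, and they are not part of the usual account of neuroblasts, which are neural stem cells. The 8 genes described here are kkv, knk, verm, serp, Gasp, obst-B, Cpr76Bc and Sp1, of 15339 genes in the deposited tables. They were chosen by name as chitin-related genes, some of which are high in mushroom body neuroblasts at 84 h, so the values of that group chose them. Their values there are therefore a description, without a test. Comparisons that leave that group out were tested. For verm and Sp1 nothing is read from these, as only that group gave them enough counts to be tested. Sp1 does not match the description as a chitin gene. It encodes a zinc finger transcription factor of the Sp family, known for its part in appendage growth, and no protein domain is listed for it in the deposited annotation.

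RNA was sequenced from neuroblasts of Drosophila melanogaster of the antennal lobe (AL) lineage and of the mushroom body (MB) lineage. AL neuroblasts were taken 24, 36, 50 and 84 h after larval hatching. MB neuroblasts were taken at 24, 50 and 84 h after hatching and at 36 h in the pupa. Each of the 8 groups had 3 libraries. Larvae that hatched at most 2 h apart were raised at 25 °C, some 30 brains were digested per preparation, and a robotic sorter collected cells carrying GFP. A library held the pooled RNA of 89 to 121 cells. The genotype, the driver of GFP and any agent other than the digestion enzymes are not given in the labels used here. The labels record the same numbers of cells (106, 108 and 101) for AL at 24 h and at 84 h, and they leave unsaid whether replicates are separate cultures, so p-values cover only the spread among the libraries at hand.

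Gene counts per library were 6.06 to 9.27 M (mega-counts) in AL and 3.15 to 5.83 M in MB. Levels are given as counts-per-million (CPM) after TMM scaling, and each group has n = 3. A count of 0 allows up to 3 counts, or 0.324 to 0.952 CPM depending on the library. Such limits and the counting intervals given below cover counting error only. The 8 neuroblast markers all had counts in every group, and their summed level was 2203 to 4517 CPM over the 24 libraries. In bulk RNA a smaller number of cells with a transcript and a lower level per cell cannot be told apart.

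The positions are those of genome build dm3. The verm gene (FBgn0261341) lies at 3L:19683133-19688359 on the minus strand in band 76C, and serp (FBgn0260653) at 3L:19694077-19700800 on the same strand, 5.72 kb away. Both encode chitin deacetylases of the tracheal lining that limit tube length, and for both the deposited annotation lists a chitin-binding domain and repeats of the LDL receptor class A. A polysaccharide deacetylase domain is listed for serp. Cpr76Bc (FBgn0036880), a cuticular protein gene with an insect cuticle domain, lies at 3L:19514367-19520372 on the plus strand in band 76B, 163 kb from verm. The chitin synthase gene kkv (FBgn0001311) lies at 3R:1203815-1218587 in band 83A, and Gasp (FBgn0026077), which encodes a secreted chitin-binding protein of the tracheal lumen, at 3R:1918721-1926609 in band 83D. The knk gene (FBgn0001321), whose product protects new chitin and which has DOMON and DM13 domains, lies at 3R:5948087-5951386 in band 85F. These last 3 genes are on the minus strand. On the plus strand, obst-B (FBgn0027600), a chitin-binding protein gene of the obstructor family, lies at 2L:10032694-10038954 in band 30F, and Sp1 (FBgn0020378) at X:9623681-9649831 in band 9A.

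At 84 h in MB, Cpr76Bc, Gasp and verm averaged 95.5 ± 32.2, 41.6 ± 20.6 and 41.1 ± 17.6 CPM (SD), against 1.20 ± 0.738, 0.959 and 0.519 CPM at 24 h. For kkv, the chitin synthase gene, the means were 11.9 and 3.51 CPM. All 8 genes were higher in every MB library at 84 h than in every MB library at 24 h. Of all 10324 genes tested, 16.2% had such a gap upward and 14.4% were called in this comparison, 5.81% as higher. As that comparison contributed to the choice of the genes, nothing is read from these shares. edgeR called 600 genes as higher and 891 as lower, and limma on log2(TPM + 1) called 1169 and 569. Per length of transcript, in transcripts-per-million (TPM), the mean level at 84 h in MB was 132 for Cpr76Bc, 54.7 for Gasp, 43.9 for verm, 12.6 for obst-B, 10.3 for knk, 9.07 for serp, 7.47 for Sp1 and 5.33 for kkv.

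**Figure D1:**
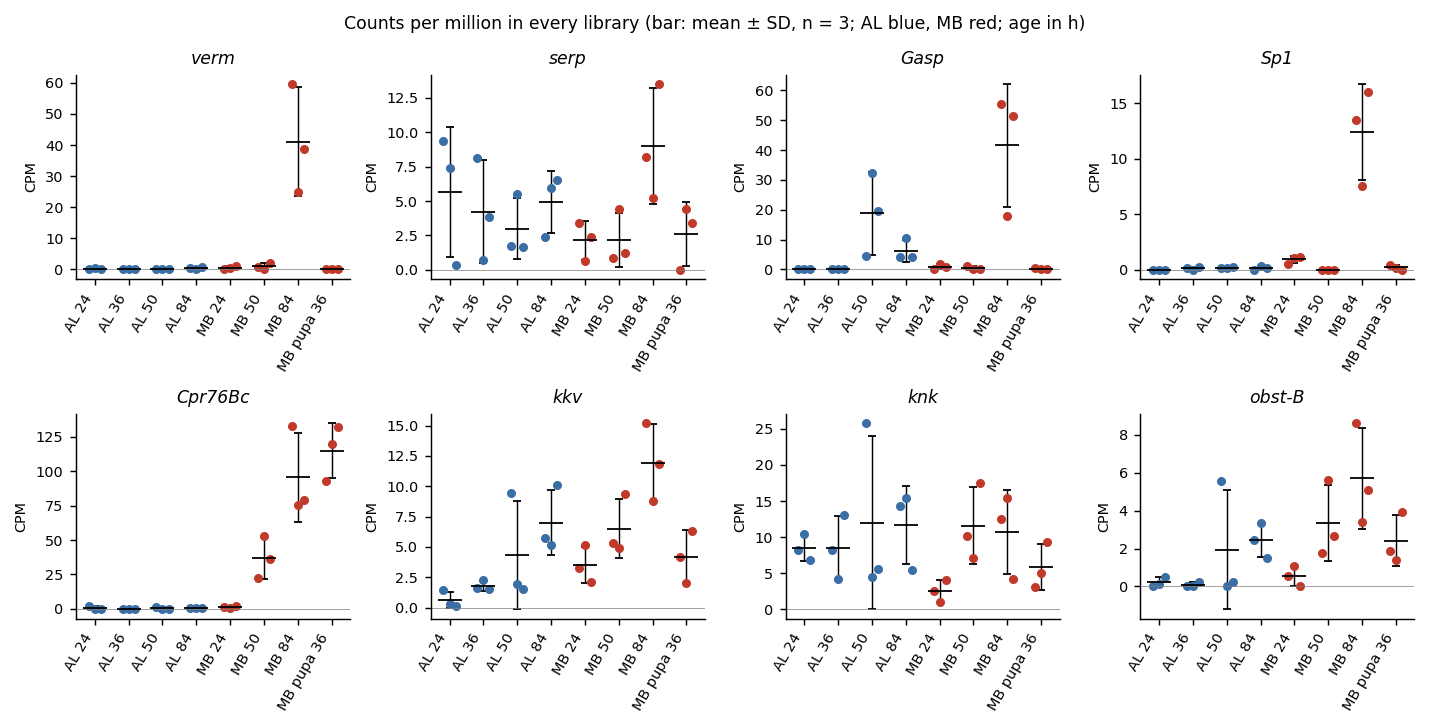
Counts-per-million (y axis, linear, 1 scale per gene) of the 8 genes in each of the 24 libraries, by group (x axis, lineage and age in h). Points are libraries, and the horizontal and vertical bars are the mean and SD of 3 libraries. In verm and Sp1 the 3 MB libraries at 84 h stand above all other libraries, in Cpr76Bc the pupal MB libraries overlap those at 84 h, and Gasp is also present in AL at 50 and 84 h.

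The deacetylase gene verm was almost absent outside MB at 84 h. It read 59.7, 24.8 and 38.7 CPM in the 3 libraries of that group, and 0.18, 0.43 and 0.95 CPM in MB at 24 h. MB at 50 h gave 0.59, 0 and 2.16 CPM, and pupal MB gave 0.23, 0 and 0 CPM. In AL the highest library had 0.76 CPM, at 84 h, and no library at 36 or 50 h had a count. The lowest MB library at 84 h was thus far above the highest of the other 21 libraries. Of all genes tested 0.697% had that pattern, and nothing is read from this share, since these values chose verm. Over pooled counts, MB at 84 h was 83.1-fold above MB at 24 h, with an exact 95% counting interval of 40.1 to 207, and 119-fold above AL at 84 h, with an interval of 60.1 to 277. Pupal MB held 1 count against 635 at 84 h, a ratio of 0.00152 with an interval of 3.85e-05 to 0.00851. Of the comparisons without MB at 84 h, verm was called at 50 h, where MB had 11 counts and AL had 0. The 11 counts are at least 2.17-fold above the floor of 3 counts per AL library, with an adjusted p of 0.016 in edgeR's quasi-likelihood test (Benjamini-Hochberg adjustment). The call was lost without MB replicate 3, which held the 2.16 CPM, with an adjusted p of 0.237. It was also lost without AL replicate 1 (0.053) or 3 (0.055), and with limma on log2(TPM + 1) (0.274). Outside MB at 84 h no library held more than 9 verm counts, so verm passed the low count filter through the group that chose it. Nothing is read from this call.

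The neighbouring deacetylase gene serp did not share that pattern. Its MB libraries at 84 h gave 8.21, 5.20 and 13.5 CPM, those at 24 h gave 3.42, 0.64 and 2.38 CPM, and those of AL at 24 h gave 9.32, 7.38 and 0.34 CPM. Ordered by mean, each group overlapped the next, from 8.99 CPM in MB at 84 h down to 2.15 CPM in MB at 24 h. None of the tested comparisons called serp. Over the 24 libraries the Pearson r between verm and serp was 0.386 (log2(CPM + 1)). The genes are paralogs, and the way reads that match both were counted is not given, so a small part of either count could come from the other.

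**Figure D2:**
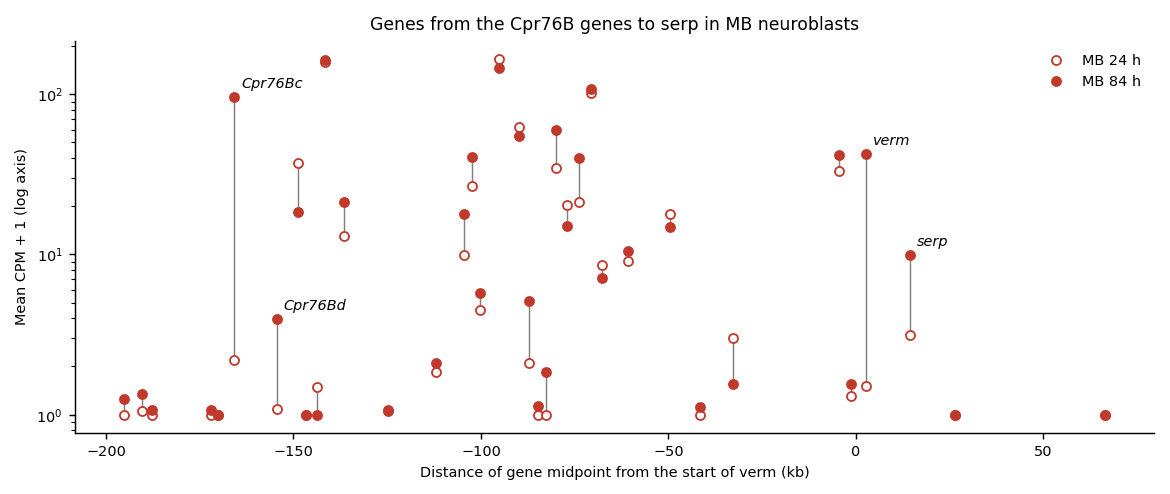
Mean CPM + 1 (y axis, log scale) in MB at 24 h (open) and 84 h (filled) of the 37 genes from 20 kb before the Cpr76B genes to 20 kb after serp, by distance of the gene midpoint from the start of verm (x axis, kb). Grey lines join the 2 ages of a gene. Cpr76Bc and verm span the longest distances between the ages, and most genes between them differ little.

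Among the 37 genes of that stretch of 3L, 20 that are not among the 8 passed the low count filter, and 2 of these rose from 24 to 84 h in MB and 0 fell, beside 14.4% called and 5.81% called as higher among all genes. Those that rose were Lon, a mitochondrial protease gene, by a log2 fold change of 0.80 (adjusted p 0.025), and l(3)76BDm by 0.95 (adjusted p 0.04). The gene next to verm on the other side, Gbeta76C, had 21 counts over all 24 libraries. CG8765, the second gene before verm, had a mean of 32.3 CPM at the younger and 40.6 CPM at the older age (adjusted p 0.55).

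Gasp was present in both lineages at 84 h, and in AL already at 50 h, when MB was still low. In AL it had no count at 24 h and 0, 0.18 and 0.12 CPM at 36 h. It then gave 4.58, 32.3 and 19.5 CPM in the libraries of 50 h, and those of 84 h gave 4.15, 10.5 and 4.08 CPM. Every AL library at 50 and 84 h was above every AL library at 24 and 36 h, and the 50 and 84 h libraries overlapped. The change over the 4 AL ages was called in edgeR's quasi-likelihood F test with an adjusted p of 2e-07, and leaving out any 1 of the 12 AL libraries kept it between 5.2e-09 and 2.4e-06. The background was 15.3% of genes called. AL at 84 h was at least 12.9-fold above the floor of AL at 24 h (adjusted p 0.0001), where 12.4% of genes were called. AL at 50 h was at least 38.9-fold above it (adjusted p 1.2e-05), in a comparison chosen after the data were seen and in which 3.7% of genes were called.

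In MB, Gasp was still low at 50 h. The libraries of 24 h gave 0, 1.93 and 0.95 CPM, and those of 50 h gave 1.18, 0 and 0.24 CPM. At 84 h they gave 55.4, 17.9 and 51.5 CPM, and in the pupa 0.47, 0 and 0 CPM. The MB libraries at 24 h, 50 h and in the pupa overlapped. At 50 h MB held 5 counts against 398 in AL, a 43.4-fold lower level, with a log2 difference (MB minus AL) of -5.34 ± 1.00 (SE) and an adjusted p of 0.00025. It stayed called in each of the 6 fits without 1 library, from -7.06 without MB replicate 1, which held the 1.18 CPM, to -4.71 without AL replicate 2, which held the 32.3 CPM. In that comparison 11.3% of genes were called. MB at 84 h was 45.4-fold above MB at 24 h (95% counting interval 26.3 to 85.6) and 6.48-fold above AL at 84 h (5.42 to 7.8), and its lowest library lay within the AL values at 50 h. The pupa held 2 counts against 644 at 84 h, a ratio of 0.003 (0.000363 to 0.0109). At 24 h MB held 13 counts and AL 0, at least 1.98-fold above the floor with an adjusted p of 0.029, where 10.8% of genes were called. That call was lost in 5 of the 6 fits that left out 1 library.

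The AL and MB time courses of Gasp were compared directly from 24 to 50 h, also a comparison chosen after the data were seen. The change in MB minus the change in AL was -10.85 ± 1.88 (SE) on the log2 scale (adjusted p 0.00035), a fitted value that rests on the 0 counts of AL at 24 h and is no bound. In the 12 fits without 1 library it ranged from -12.59 (without MB replicate 1 at 50 h) to -9.80 (without MB replicate 2 at 24 h) and stayed called in each. Of all genes tested, 2.42% were called.

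By Pearson r of log2(CPM + 1) over the 24 libraries, the gene most like Gasp among 6432 candidates was br (r = 0.854), which encodes the ecdysone-induced zinc finger factor Broad. Its mean was 74.1, 128, 568 and 445 CPM in AL at 24, 36, 50 and 84 h, and 57.4, 84.8 and 517 CPM in MB at 24, 50 and 84 h. Pupal MB gave 48.4 CPM. The next were ytr (0.826) and CG11509 (0.79). The libraries share groups and differ in depth, so r describes likeness of pattern only.

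Cpr76Bc was high in MB from 50 h on, the pupa included, and low in AL. The MB libraries of 24 h gave 1.26, 0.43 and 1.90 CPM, and those of 50 h gave 22.5, 52.7 and 35.9 CPM. At 84 h they gave 133, 75.2 and 78.8 CPM, and in the pupa 92.6, 120 and 132 CPM. No AL library was above 2.05 CPM, a value from AL at 24 h, and AL at 36 h had no count. The 24, 50 and 84 h libraries of MB did not overlap, while those at 84 h overlapped the pupal ones. From 24 to 50 h Cpr76Bc rose 32.2-fold (95% counting interval 19.9 to 55.7), with a log2 fold change of 4.95 ± 0.66 (SE) and an adjusted p of 7.6e-05 in edgeR's quasi-likelihood test. Of the 8 genes it was the 1 called in that comparison, in which 3.55% of genes were called.

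In pupal MB, Cpr76Bc was 100-fold above MB at 24 h (log2 6.57 ± 0.68, adjusted p 1.1e-07), again the 1 of the 8 called, against 16.7% of genes, with 628 higher and 1097 lower in edgeR where limma on log2(TPM + 1) had 1279 and 740. At 50 h it was 73.6-fold higher in MB than in AL (log2 6.11 ± 0.70, adjusted p 1.5e-06). That call held in each of the 6 fits without 1 library, from 5.57 to 8.68, and the highest value came without AL replicate 1, which held 10 of the 11 AL counts. The difference between lineages in the change from 24 to 50 h, chosen after the data were seen as for Gasp, was 5.56 ± 1.16 (adjusted p 0.0078). Without AL replicate 1 at 24 h, the library with 2.05 CPM, it was 3.39 and no longer called (adjusted p 0.424), and without AL replicate 1 at 50 h it was 8.12. Over the 4 AL ages the adjusted p was 0.14 in edgeR, with 0 to 15 counts per group. It was 0.00054 without the low count filter, 0.026 with DESeq2 and 0.034 when scaled to spike-in RNA and cell numbers. Without AL replicate 1 at 50 h it was 0.017. At 84 h the ratio of MB to AL was 247 (95% counting interval 130 to 542), and pupal MB to MB at 84 h was 1.25 (1.17 to 1.34). These intervals cover counting error only, and the fitted log2 value of pupal MB against MB at 84 h was 0.26 ± 0.48 (SE). The pupa and the 84 h group share the 24 h libraries as their reference, so the values of verm, Gasp and Sp1 (near 0 in the pupa) and of Cpr76Bc (overlapping the 84 h libraries) stand side by side without a test of likeness.

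The 3 other genes of the Cpr76B group, which lie within 20 kb of Cpr76Bc and also encode cuticular proteins, were low or absent. Cpr76Ba had at most 1 count in a group and Cpr76Bb had 0 in all. Cpr76Bd, 5.47 kb away, had 1 count in MB at 24 h, 2 at 50 h, 48 at 84 h (2.97 ± 2.36 CPM, SD) and 37 in the pupa, and its change from 24 to 84 h was not called by edgeR (adjusted p 0.076) but was by DESeq2 and limma. The genes most like Cpr76Bc over the 24 libraries were wun2 (r = 0.91), a lipid phosphate phosphatase gene, Tsp42Ed (0.89), a tetraspanin gene, and Arpc1 (0.886), an Arp2/3 complex gene. The mean of wun2 was 13.5, 61.2 and 111 CPM in MB at 24, 50 and 84 h, 124 CPM in the pupa, and 0.432 to 11.9 CPM in AL.

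Of the 8 genes, Sp1 and verm had the most similar pattern. Sp1 gave 13.5, 7.54 and 16 CPM in MB at 84 h, 0.54, 1.07 and 1.19 CPM at 24 h, and 0 in all 3 MB libraries at 50 h. The pupal MB libraries gave 0.47, 0.20 and 0 CPM, and no AL library was above 0.37 CPM. All MB libraries at 84 h were above the other 21, values that also chose Sp1. The pooled level was 13.6-fold above MB at 24 h (95% counting interval 7.76 to 26) and 72.4-fold above AL at 84 h (27.8 to 268), and pupal MB held 3 counts, a ratio to 84 h of 0.015 (0.00307 to 0.0446). The Pearson r of Sp1 with verm was 0.947 and both had CG9426 as the gene most like them (0.844 and 0.865), whose mean was 32.4 to 41.4 CPM in 7 groups and 130 CPM in MB at 84 h. Sp1 and verm were chosen by their values in MB at 84 h and were low elsewhere. A high r follows from that choice, so nothing is read from it. At 24 h MB had 13 Sp1 counts and AL 0, at least 1.93-fold above the floor (adjusted p 0.036), a call lost in 5 of 6 fits without 1 library. The difference between 24 and 50 h in MB was not called (adjusted p 0.136), and when scaled to spike-in RNA and cell numbers the adjusted p was 0.01. Outside MB at 84 h no library held more than 5 Sp1 counts, so Sp1 passed the low count filter through the group that chose it. Nothing is read from these tests of Sp1.

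The chitin synthase gene kkv was present in both lineages and rose with age in AL. The AL libraries of 24 h gave 1.42, 0.31 and 0.17 CPM, and those of 36 h gave 1.60, 2.28 and 1.56 CPM. At 50 h they gave 9.45, 1.95 and 1.56 CPM, and at 84 h 5.72, 5.17 and 10.1 CPM. Every AL library at 84 h was above every AL library at 24 h, as for 12.8% of genes. That rise was 10.5-fold (log2 3.41 ± 0.84 SE, adjusted p 0.0039 in edgeR's quasi-likelihood test). It stayed called without any 1 library (2.99 to 4.74, the highest without AL replicate 1 at 24 h, which held the 1.42 CPM). With Gasp it made 2 of the 8 called in that comparison, in which 12.4% of all genes were called. The change over the 4 AL ages was called with an adjusted p of 0.011, which became 0.051 with limma on log2(TPM + 1) and 0.074 when the fit held the AL groups alone. The MB libraries of 24 h gave 3.24, 5.14 and 2.14 CPM, and those of 50 h gave 5.33, 4.90 and 9.34 CPM. At 84 h they gave 15.2, 8.79 and 11.8 CPM, and in the pupa 4.21, 2.02 and 6.35 CPM. At 24 h MB was 5.5-fold above AL and not called (adjusted p 0.053), while DESeq2 gave an adjusted p of 0.022. The 84 h libraries of the lineages overlapped, with a ratio of MB to AL of 1.74 (95% counting interval 1.4 to 2.17, counting error only). The fitted log2 value was 0.77 ± 0.73 (SE). CG14668 overlaps kkv on the same strand and had 51 counts in the 24 libraries. The genes most like kkv were Glycogenin (r = 0.835) and Gbs-76A (0.816), both of glycogen metabolism, and CG1602 (0.813).

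For knk and obst-B most groups overlapped. For knk, MB at 24 h was lowest, with 2.52, 1.07 and 4.04 CPM, while MB at 50 h gave 10.1, 7.11 and 17.5 CPM and MB at 84 h gave 12.5, 15.4 and 4.14 CPM. AL at 24 h gave 8.21, 10.4 and 6.86 CPM. The difference between 24 and 50 h in MB was 4.69-fold without overlap, as 9.81% of genes were upward, and was not called (log2 2.18 ± 0.68, adjusted p 0.064), and without the low count filter or with DESeq2 the adjusted p was 0.029. The gene most like knk was Topors, with an r of 0.647. For obst-B, AL at 24 and 36 h gave 0 to 0.51 CPM, AL at 84 h gave 2.47, 3.33 and 1.51 CPM, and MB at 84 h gave 8.62, 3.41 and 5.08 CPM. Its change over the AL ages had an adjusted p of 0.048, which was lost in 6 of 12 fits without 1 library (up to 0.111). AL replicate 1 at 50 h held the highest AL value of kkv at that age, and of knk (25.8 CPM) and obst-B (5.58 CPM) at any AL age. Within MB at 84 h, replicate 2 was lowest for 7 of the 8 genes, and over all genes tested it was lowest for 35.5%.

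Other genes of chitin metabolism were read in the same comparison. Of 9 further genes of chitin synthesis and export, 2 rose and 0 fell from 24 to 84 h, with 8.63% of all genes called as lower beside the 5.81% called as higher, and with a median log2 fold change of 0.29 against 0.05 over all genes tested. Gfat1, the first enzyme of the pathway to the sugar precursor of chitin, rose from 1.19 ± 1.48 (SD) to 16.8 ± 3.71 CPM (log2 3.82 ± 1.13, SE; adjusted p 0.018), a call lost without MB replicate 1 or 2 at 24 h. CS-2, the gut chitin synthase gene, rose from 1.80 ± 1.94 to 9.49 ± 6.24 CPM (2.41 ± 0.80, adjusted p 0.034), a call lost in 4 of 6 fits without 1 library. Among the other deacetylase genes edgeR called 0 of 3, with 1 at an unadjusted p under 0.05, 0 with DESeq2 and 1 with limma. Among the other obstructor and peritrophin-like genes it called 0 of 5, with 0 at an unadjusted p under 0.05 and 0 with either other tool. Of 16 chitinase and chitinase-like genes 1 fell, Cht6 (-1.02, adjusted p 0.047), and it lost the call in all 6 fits without 1 library. Of 8 tanning enzyme genes edgeR called 0, with 3 at an unadjusted p under 0.05, 2 called with DESeq2 and 2 with limma.

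From 24 to 84 h in AL, where 5.67% of all genes were called as higher and 6.7% as lower, 1 of 11 genes of chitin synthesis and export rose (kkv), as did 1 of 7 obstructor and peritrophin-like genes (Gasp) and 1 of 5 deacetylase genes (Cda5), and 0 of each of these lists fell. The medians were 0.20, -0.08 and 0.86 against -0.02 over all genes tested. Cda5, which encodes a further deacetylase, rose from 29.3 ± 4.82 to 53.2 ± 13.8 CPM in AL (log2 0.86 ± 0.27, SE; adjusted p 0.029), a call lost in 4 of 6 fits without 1 library. At 24 h it was higher in MB, with 71.2 ± 4.42 CPM (MB minus AL 1.28 ± 0.28, adjusted p 0.0009), as it was at 50 h (0.94 ± 0.28, adjusted p 0.018, a call lost in 2 of 6 fits). With limma neither of these lineage differences was called. Of 16 chitinase and chitinase-like genes 0 rose and 2 fell in AL. Idgf4, a chitinase-like growth factor gene, fell from 111 counts to 0 (adjusted p 0.0089), a call lost in 1 of 6 fits without 1 library, and Cht6 by 1.07 on the log2 scale (adjusted p 0.034), lost in 5 of 6. Of 8 tanning enzyme genes 1 fell in AL, ple, the tyrosine hydroxylase gene, from 7.50 ± 7.34 to 0.56 ± 0.205 CPM (-3.70 ± 1.12, SE; adjusted p 0.022), a call lost in 4 of 6 fits. Among 36 cuticular protein genes 1 rose and 1 fell, among 11 apical matrix genes 0 rose and 1 fell, and among 9 Sp and KLF factors 1 rose and 0 fell.

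**Figure D3:**
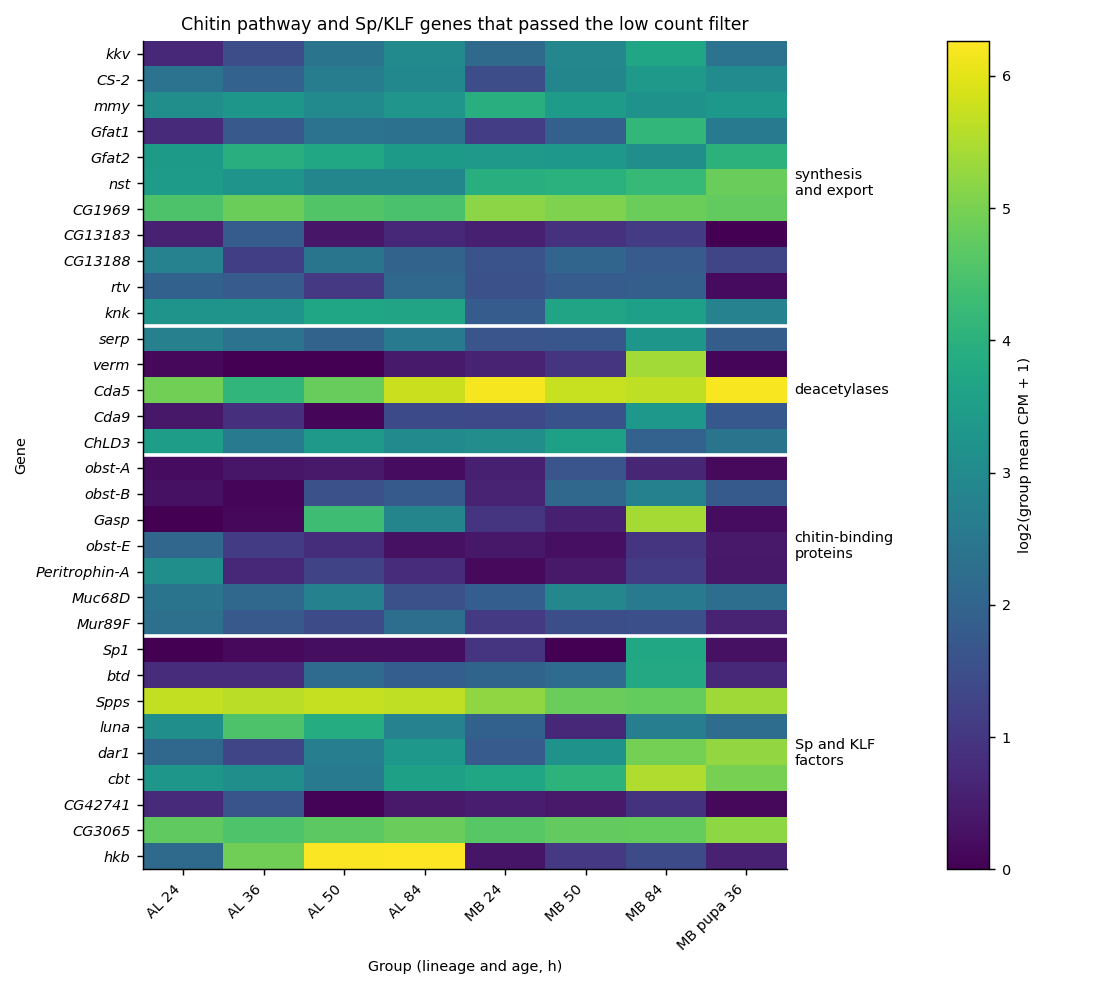
Mean level as log2(CPM + 1) (colour) of the genes of chitin synthesis and export, the deacetylases, the chitin-binding proteins and the Sp and KLF factors that passed the low count filter (rows), in the 8 groups (columns, lineage and age in h). Along its row, hkb was highest in the later AL groups, Gasp had high means in AL at 50 h and MB at 84 h, and verm and Sp1 had their highest mean in MB at 84 h.

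Most cuticular protein genes had few or no counts. Of 119 genes besides Cpr76Bc, 35 passed the low count filter. From 24 to 84 h 0 of these rose and 1 fell, TwdlC (log2 -3.03, adjusted p 0.041), a call lost in 5 of 6 fits without 1 library. The median was 0.69, against 0.05 over all genes tested. In pupal MB against 24 h, with Cpr76Bc included, 3 of 36 rose and 3 fell, with 6.08% of all genes called as higher and 10.6% as lower. Beside Cpr76Bc, Ccp84Ab rose (5.02, adjusted p 0.0035), while TwdlC (-4.82, adjusted p 0.002) and Cpr35B (-4.33, adjusted p 0.0048) fell. Of 11 zona pellucida and other apical matrix genes 1 fell from 24 to 84 h, tyn (-1.33, adjusted p 0.00067), which shapes cuticle hairs.

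Of 36 genes with a chitin-binding domain in the deposited annotation that are not among the 8, 0 rose and 3 fell, beside 5.81% and 8.63% of all genes. This list shares genes with those above, Cda5 and Cht6 among them, so the counts are not separate. In edgeR CG32036 fell from 30.9 ± 11.9 to 5.73 ± 1.83 CPM (-2.43, adjusted p 0.00029) and Mur2B from 68.5 ± 26.3 to 23.3 ± 14.7 CPM (-1.55, adjusted p 0.00034). The other was Cht6, given above. The genes with an insect cuticle domain are mostly cuticular protein genes already counted above. Of 31 that are not among the 8, 1 rose, l(3)mbn (2 counts at 24 h and 85 at 84 h, adjusted p 0.012 in edgeR), a call lost in 2 of 6 fits without 1 library.

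Among the other Sp and KLF factors, the family of Sp1, 3 of 8 rose in MB from 24 to 84 h and 0 fell, beside 5.81% and 8.63% of all genes. dar1, a KLF gene known for its part in dendrite growth, rose from 2.46 ± 1.87 to 30.0 ± 7.02 CPM (log2 3.63 ± 0.72, SE; adjusted p 0.00034) and stood at 37.2 ± 6.77 CPM in the pupa. cbt rose from 11.9 ± 6.21 to 44.8 ± 17.1 CPM (1.90 ± 0.48, adjusted p 0.0036). hkb rose from 4 to 28 counts (2.58 ± 0.88, adjusted p 0.043), a call lost in 4 of 6 fits without 1 library, and its level in AL at 84 h was 75.9 ± 8.85 CPM. Of 13 genes for nuclear receptors and other factors of moulting and metamorphosis, 5 rose and 3 fell, beside the same shares of all genes. br rose from 57.4 ± 5.92 to 517 ± 109 CPM (3.17 ± 0.20, adjusted p 5.8e-15), Eip93F rose by 4.83 ± 0.42 (adjusted p 1.4e-07), and Hr4 fell by 3.09 on the log2 scale (adjusted p 1.5e-06). grh, a neuroblast factor that also acts on cuticle genes in the epidermis, went from 1066 ± 48 CPM at 24 h down to 585 ± 71.7 CPM at 84 h (-0.87 ± 0.12, adjusted p 4.6e-07).

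**Figure D4:**
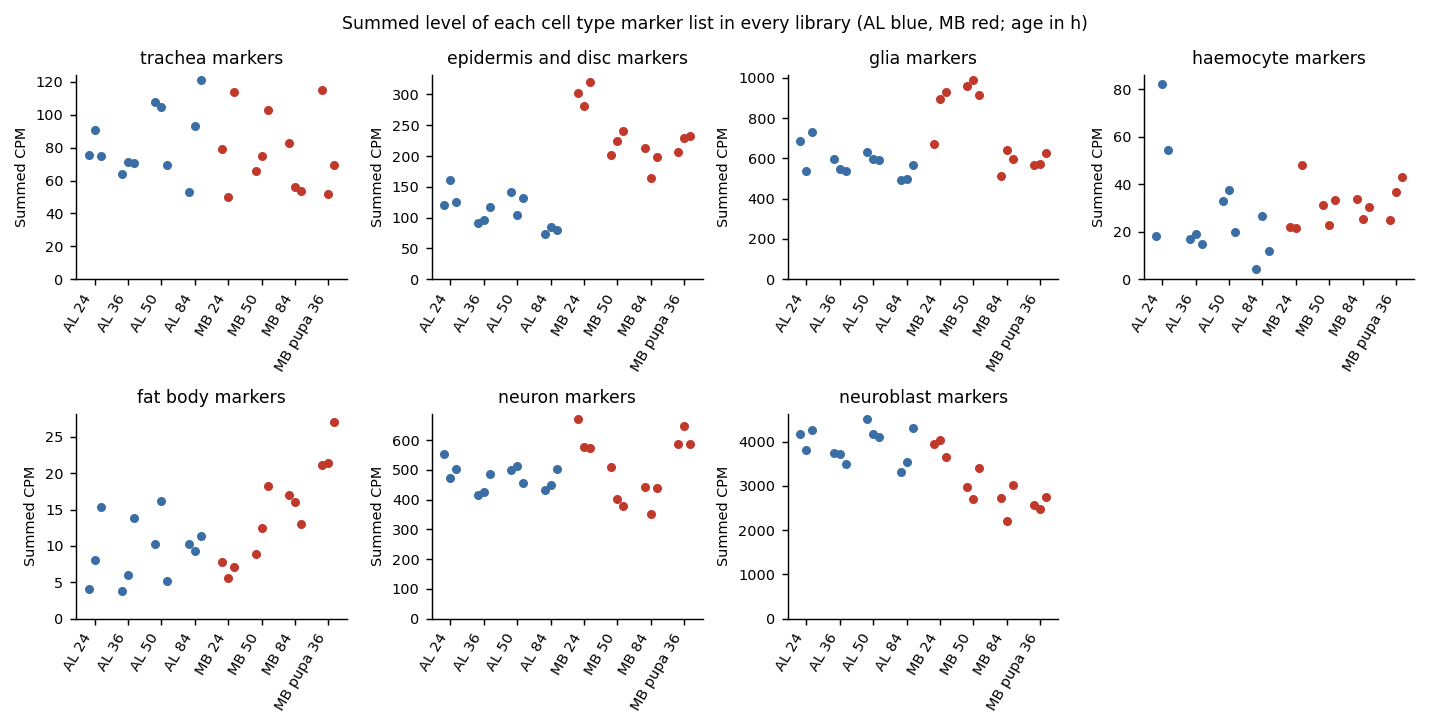
Summed CPM (y axis, linear from 0, 1 scale per list) of 7 lists of cell type markers in each library (points), by group (x axis, lineage and age in h). The trachea sums of MB at 84 h overlap those of MB at 24 h, and the fat body sums of MB at 84 h and in the pupa lie above those of MB at 24 h.

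Markers of trachea and epidermis, tissues that make chitin, and of further cell types were read beside these values. The 12 trachea markers summed to 50.3 to 114 CPM in MB at 24 h and to 82.9, 56.0 and 53.4 CPM at 84 h, and of 11 tested 0 rose and 1 fell. Among them trh and btl, neither called as higher, had means of 5.57 and 1.40 CPM at 24 h. Their means at 84 h were higher, at 6.27 and 3.23 CPM. Over the whole list the mean sum went from 81.3 CPM at 24 h to 64.1 CPM at 84 h. The median log2 fold change of the list was 0.19, against 0.05 over all genes tested. The 13 epidermis and disc markers summed to 281 to 320 CPM at 24 h and 165 to 213 CPM at 84 h. Of 10 tested, 1 rose and 1 fell. Glia markers went from 673 to 928 CPM at 24 h to 514 to 641 CPM at 84 h, haemocyte markers from 21.4 to 48.2 CPM to 25.3 to 33.9 CPM with eater at 0 at 84 h, and neuron markers from 573 to 672 CPM to 351 to 443 CPM. Of 6 haemocyte markers tested 1 rose and 0 fell. This was nimC1, a phagocytosis receptor gene, with 0 counts at 24 h and 70 at 84 h (adjusted p 0.019), a call lost in 4 of 6 fits without 1 library. Neuroblast markers went from 3660 to 4040 CPM to 2203 to 3016 CPM, and of 8 tested 1 rose and 5 fell. Of 11 glia markers tested 0 rose and 1 fell, and of 8 neuron markers tested 0 rose and 3 fell. Among all genes 5.81% were called as higher and 8.63% as lower from 24 to 84 h in MB. The summed level of the 6 fat body markers was higher in each MB library at 84 h, 13 to 17 CPM against 5.57 to 7.75 CPM at 24 h. Fbp2 was at 0 in both, and the pupal sums were 21.1 to 27 CPM. Of 4 tested 1 rose and 0 fell, Lsp1gamma, a larval serum protein gene, from 0.279 ± 0.248 to 5.42 ± 0.555 CPM (log2 4.19 ± 1.19, SE; adjusted p 0.011), a call lost in 1 of 6 fits, and it stood at 14.4 ± 4.2 CPM in the pupa. The part of these cell types in the values at 84 h was not tested.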

How the data were processed

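RNA-seq of 24 libraries in 8 groups was analysed. The authors deposited counts per gene, whole numbers without normalization, and a table of TPM that the authors scaled per library and by gene length. The submitters' processing notes name STAR 2.4.0i, HTSeq 0.6.1p1, Bowtie2 2.1.0, CASAVA and cutadapt 1.7.1, with builds mm10 and dm3. Not given in the sources used here are their roles, the strand setting and the annotation version. Per the labels' protocols RNA was amplified (Ovation V2) before library construction (Encore), so reads are not independent molecules.

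Of 15437 rows, 15339 genes were used. The row without a name (at most 17 counts in a library), 5 summary rows and 92 spike-in RNAs were left out of tests. Reads without a feature came to 6.88% to 11.6% and ambiguous reads to 1.09% to 1.39%. edgeR 4.0.16 (TMM, filterByExpr, robust quasi-likelihood F test, 1 mean per group, all 24 libraries; R 4.3.3) tested 10324 genes with Benjamini-Hochberg adjustment over all of them at 0.05. The common biological coefficient of variation was 0.471. The fit was tested on simulated data in which only genes of higher level were changed. That test does not cover values near 0, such as those of verm and Sp1 outside MB at 84 h. All 8 genes passed the low count filter, verm and Sp1 only through MB at 84 h. Levels are CPM with SD and log2 fold changes have their SE. Against a group with 0 counts, folds are lower bounds at a floor of 3 counts per library. Ratios of pooled counts have exact 95% Poisson intervals. Per-length levels are the deposited TPM.

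The 8 genes and the lists were chosen with earlier results of these data known. Lists cover chitin synthesis and export, deacetylases, obstructor and peritrophin-like proteins, chitinases, Cpr76B neighbours, cuticular proteins, apical matrix genes, tanning enzymes, Sp and KLF factors, moulting factors, 2 annotated domains, and markers of trachea, epidermis and disc, glia, haemocytes, fat body, neurons and neuroblasts. Up to 4 called genes of a list with the smallest adjusted p were candidates for naming in a comparison, with the Cpr76B genes. For each of the 8 genes that reached a group mean of 10 CPM, the 3 genes with the highest r among those reaching 10 CPM were found. Other genes named are neighbours, or the markers trh, btl, eater and Fbp2, which were named outside that rule. Lon and l(3)76BDm, called genes of the 3L stretch, and that stretch itself were chosen after their values were seen. The 2 comparisons of AL at 50 h with 24 h and of the lineages' changes from 24 to 50 h were added after the data were seen. Alternatives were DESeq2 1.42.0 size factors and test, spike-in and cell number scaling, no filter, limma 3.58.1 on log2(TPM + 1) or log2(TPM + 0.1), a replicate block, the compared groups alone, and each library left out.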

Additional observations from a re-analysis of the deposited data

Results flagged for a closer look

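For 2 of the 8 genes the change from 24 to 50 h differed between MB and AL by a test of the difference itself. For Gasp the change in MB minus that in AL was -10.85 on the log2 scale (adjusted p 0.00035 in edgeR's quasi-likelihood test), with 0 counts in AL at 24 h and 398 in AL at 50 h, against 13 and 5 counts in MB. For Cpr76Bc it was 5.56 (adjusted p 0.0078), with 15 and 11 counts in AL and 17 and 441 in MB, but 3.39 and not called (adjusted p 0.424) without AL replicate 1 at 24 h and 8.12 without AL replicate 1 at 50 h. Both come from a comparison chosen after the data were seen.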

How the results depend on the processing

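Values of the 8 genes were recomputed under each alternative. No direction of a called value of these genes reversed. Of the called moulting factors, ftz-f1 in AL 84 h against 24 h had a log2 value of -0.59. When scaled to spike-in RNA and cell numbers it had 0.01, near no change, and the median of all genes was then 0.59. With 1 library left out, 680 of the values kept their direction and side of the threshold, 14 moved by more than the spread, 20 lost a call and 6 gained one. In the other settings 770 kept both, 31 moved, 16 lost a call and 18 gained one. The lost calls were those of verm, Gasp, Sp1, kkv, obst-B and Cpr76Bc named above. Depth limits the low genes: with 0.324 to 0.952 CPM as the floor, levels of verm and Sp1 outside MB at 84 h and of Cpr76Bc in AL could not be ranked.

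In the main edgeR fit the median log2 value of all genes was between -0.02 and 0.06 in these comparisons. Scaling to spike-in RNA and recorded cell numbers gave medians of -0.18 (MB 84 h against 24 h), -0.98 (MB 50 h against 24 h), -0.11 (pupal MB against 24 h), 0.59 (AL 84 h against 24 h), 1.05, -0.35 and 0.27 (MB against AL at 24, 50 and 84 h), -0.81 (difference between lineages in the change to 84 h), 0.43 (AL 50 h against 24 h) and -1.42 (difference in the change to 50 h). It changed the genes called to 939 from 1491 (210 higher, 729 lower) for MB 84 h against 24 h, to 3573 from 366 (55, 3518) for MB 50 h against 24 h, to 100 from 269 for the pupa against 84 h, to 1118 from 1725 (242, 876) for the pupa against 24 h, and to 4089 from 1120 (3997, 92), 710 from 1170 (117, 593) and 335 from 792 (254, 81) for MB against AL at 24, 50 and 84 h. The lineages' difference went to 1079 from 486 (86, 993) for 84 h and 3802 from 250 (45, 3757) for 50 h, and AL 84 h against 24 h split into 1488 higher and 150 lower. The cause was not tested.

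For MB 50 h against 24 h limma called 228 genes with log2(TPM + 1), 231 with log2(TPM + 0.1) and 192 without a filter, and split 156 higher and 72 lower where edgeR had 131 and 235. Splits with limma on log2(TPM + 1) were 1169 higher and 569 lower for MB 84 h against 24 h (median of all genes 0.24), where edgeR had 600 and 891 (0.05), 1279 and 740 for the pupa against 24 h (edgeR 628 and 1097), 763 and 496 for AL 84 h against 24 h (585 and 692), 477 and 609 for MB against AL at 24 h (630 and 490), and 213 and 160, and 54 and 95, for the lineages' difference to 84 h (184 and 302) and to 50 h (49 and 201). For the lineages' difference to 84 h limma without a filter called 295. For that to 50 h edgeR without a filter called 418 (133 and 285), DESeq2 379 (133 and 246), and limma 149, 140 and 127 in the same order of settings. For AL 50 h against 24 h, with 382 in edgeR, DESeq2 called 576 and limma without a filter 242.

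With 1 library left out, genes called ranged from 1078 to 1260 (MB 84 h against 24 h), 139 to 277 (MB 50 h against 24 h, lowest without MB replicate 2 at 50 h), 162 to 262 (pupa against 84 h, lowest without MB replicate 1 at 84 h), 1292 to 1496 (pupa against 24 h), 928 to 1213 (AL 84 h against 24 h), 1320 to 1602 (AL ages), 817 to 1079, 762 to 942 and 513 to 691 (MB against AL at 24, 50 and 84 h), 339 to 493 and 173 to 248 (difference between lineages to 84 and to 50 h), and 252 to 317 (AL 50 h against 24 h).

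Replicate numbers are shared between groups, and the labels do not say whether they pair libraries. Of 84 same-numbered pairs 0 had a correlation of deviations above 0.1 (-0.0952 to 0.0802), which cannot exclude a shared preparation. With the replicate block 1496 genes were called for MB 84 h against 24 h, 360 for MB 50 h against 24 h, 261 for the pupa against 84 h, 1721 for the pupa against 24 h, 1246 for AL 84 h against 24 h, 1525 for the AL ages, 1101, 1141 and 781 for MB against AL at 24, 50 and 84 h, 454 and 251 for the lineages' difference, and 364 for AL 50 h against 24 h. Under the block kkv in MB against AL at 24 h had an adjusted p of 0.04 (log2 2.61) and obst-B over the AL ages one of 0.083.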
